A study of Mus musculus with 2 samples.

Results

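The phagocyte NADPH oxidase is the enzyme complex with which neutrophils, monocytes and macrophages make superoxide from oxygen and NADPH. Its 2 membrane chains form flavocytochrome b558 and hold the catalytic core, its cytosolic subunits join that core on activation, and a Rac GTPase completes the assembly. Loss of the membrane chains or of the cytosolic subunits is known as the cause of chronic granulomatous disease, and superoxide is one of the products by which myeloid-derived suppressor cells (MDSCs) restrain T cells. Described here are the 6 listed genes Cybb, Cyba, Ncf1, Ncf4, Rac1 and Rac2, which were chosen by gene name among the 34745 genes of the deposited expression table, where each had 1 row.

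The cells were monocytic MDSCs (M-MDSCs), grown from mouse bone marrow for 7 days and separated by flow cytometry as CD11b+ Ly6G- Ly6C high cells. CHBP- M-MDSC were induced with GM-CSF alone, a myeloid growth factor, and CHBP+ M-MDSC with GM-CSF together with CHBP, a cyclic peptide derived from erythropoietin. The labels name the strain C57BL/6 in the library without CHBP and C57BL/7 in the other, and give neither a mouse age, a CHBP dose nor the number of animals behind a library. Each condition had 1 library, so no difference below has a replicate check, and CHBP cannot be told apart from any other difference between the 2 libraries. The counts summed to 16484504 reads in CHBP- and 16280466 in CHBP+ M-MDSC, and the 6 genes held 0.332% and 0.323% of them.

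The membrane chains of the oxidase differed in opposite directions between the libraries. Cybb mRNA was higher in CHBP+ M-MDSC (102 against 141 FPKM, read counts divided by the length of the gene and by the library total), whereas Cyba mRNA was lower (632 against 446 FPKM). Rac2, Ncf4 and Rac1 were lower by smaller amounts, and Ncf1 was level. None of the 6 genes was 1.5-fold higher or 1.5-fold lower. The background was 3.42% higher and 2.89% lower, among the 10948 genes with at least 1 FPKM in one library. A trend over all genes with transcript length and GC content is described below. With it removed, the log2 of the CHBP+ over the CHBP- value was 0.27 for Cybb and -0.07 for Cyba.

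Sequence upstream of the transcription start was held by the RefSeq promoter table (GRCm38.p6) for 3 of the 6 genes, which include both membrane chains and the organiser Ncf1, and their 250 upstream bases are shown to set the membrane chains, which differed in opposite directions, beside each other and beside Ncf1. The windows lie on the minus strand at chrX:9469325-9469574 for Cybb, chr8:122432941-122433190 for Cyba and chr5:134229626-134229875 for Ncf1. Those of Cyba and Ncf1 begin where the deposited gene span ends, whereas that of Cybb begins at a start 18447 bases inside its span, which is also how far the longest coding transcript of Cybb in GENCODE M1 starts inside its gene. Capitals mark matches on either strand to the letters of 4 motifs, and no match overlapped another. The motifs were a PU.1-type element GAGGAA, the CCAAT box CCAAT, an IRF-type element (GAAA, any 2 bases, GAAA) and the GC box GGGCGG. No sequence is shown for Ncf4, Rac1 and Rac2.
Cybb: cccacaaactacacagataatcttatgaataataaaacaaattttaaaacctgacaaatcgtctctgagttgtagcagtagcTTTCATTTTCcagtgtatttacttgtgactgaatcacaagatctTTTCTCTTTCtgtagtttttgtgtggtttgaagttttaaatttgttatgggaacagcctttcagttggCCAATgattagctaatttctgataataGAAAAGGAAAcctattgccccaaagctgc
Cyba: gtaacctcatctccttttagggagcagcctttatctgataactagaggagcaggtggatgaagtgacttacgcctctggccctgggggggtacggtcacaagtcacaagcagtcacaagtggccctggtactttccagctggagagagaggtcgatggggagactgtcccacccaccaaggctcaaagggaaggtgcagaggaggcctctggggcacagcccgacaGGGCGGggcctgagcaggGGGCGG
Ncf1: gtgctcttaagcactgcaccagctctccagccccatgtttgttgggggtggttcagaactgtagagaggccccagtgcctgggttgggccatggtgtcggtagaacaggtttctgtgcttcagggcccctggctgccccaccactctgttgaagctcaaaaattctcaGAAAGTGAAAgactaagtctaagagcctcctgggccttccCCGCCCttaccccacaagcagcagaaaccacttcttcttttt

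The windows of the membrane chains held different letters. The Cybb window had 3 matches to the IRF-type element, of which the nearest lay at positions -29 to -20 from the start, and 1 CCAAT box at -56 to -52. The Cyba window had neither and held 2 GC boxes, at -24 to -19 and at -6 to -1. The Ncf1 window held 1 IRF-type element at -82 to -73 and 1 GC box at -42 to -37. Of the table's 32851 windows of this length, 2.98% held the IRF-type letters, 33.8% the CCAAT box, 32.7% the GC box and 23.3% GAGGAA. The letters GAGGAA were in none of the 3 windows, and other forms of the PU.1 site were not searched for. These are letters in a window, and binding was not measured. With the trend over all genes removed, the log2 ratio was 0.27 for Cybb and -0.07 for Cyba. Any link between the letters and these ratios was not tested.

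Cybb encodes gp91phox, the chain that carries the flavin and the haems and passes electrons to oxygen. The gene (ENSMUSG00000015340) spans 9435252 to 9487771 on chromosome X (GRCm38). The reads numbered 10573 without CHBP and 14403 with CHBP, or 102 FPKM (exact Poisson 95% interval from 100.1 to 103.9) and 141 FPKM (138.4 to 143.0). CHBP+ M-MDSC were the higher library, and the intervals, which cover counting error only, did not overlap. After 1 was added to each FPKM, the log2 of the CHBP+ over the CHBP- value (log2 ratio) was 0.46, a value that 6.37% of the genes kept reached or exceeded. In reads scaled to the library totals Cybb was 1.38-fold higher, and the exact 95% Clopper-Pearson bounds were 1.35 and 1.41. By FPKM the gene moved from rank 420 to rank 260 of all genes.

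Cyba encodes p22phox, the partner chain that stabilises gp91phox and offers the docking site for the cytosolic organiser. The gene (ENSMUSG00000006519) spans 122424772 to 122432940 on chromosome 8. The reads numbered 7901 without CHBP and 5498 with it, or 632 FPKM (618 to 646) and 446 FPKM (434 to 457). CHBP- M-MDSC were the higher library, again without overlap of the intervals. The log2 ratio was -0.50, and 4.96% of the genes kept were as low or lower. In scaled reads the fold was 0.705, with an interval from 0.681 to 0.729. Cyba had the highest level of the 6 genes in both libraries, at rank 71 and rank 77 of all genes. Its span lies within that of Gm20388, which is listed with 0 reads in both libraries.

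Since both chains occur in 1 heterodimer, their mRNAs were set against each other within each library, where the scaling between libraries has no part. Cyba exceeded Cybb 6.20-fold in FPKM in CHBP- M-MDSC and 3.17-fold in CHBP+ M-MDSC. In reads, the ratio of Cyba to Cybb in CHBP+ M-MDSC was 0.511 times that in CHBP- M-MDSC, with an exact conditional 95% interval from 0.489 to 0.533 for counting error. This was the widest shift of the 3 pairs examined. Once the trend over all genes with transcript length and GC content, described below, was removed, the CHBP+ ratio was 0.792 times the CHBP- ratio.

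**Figure D1:**
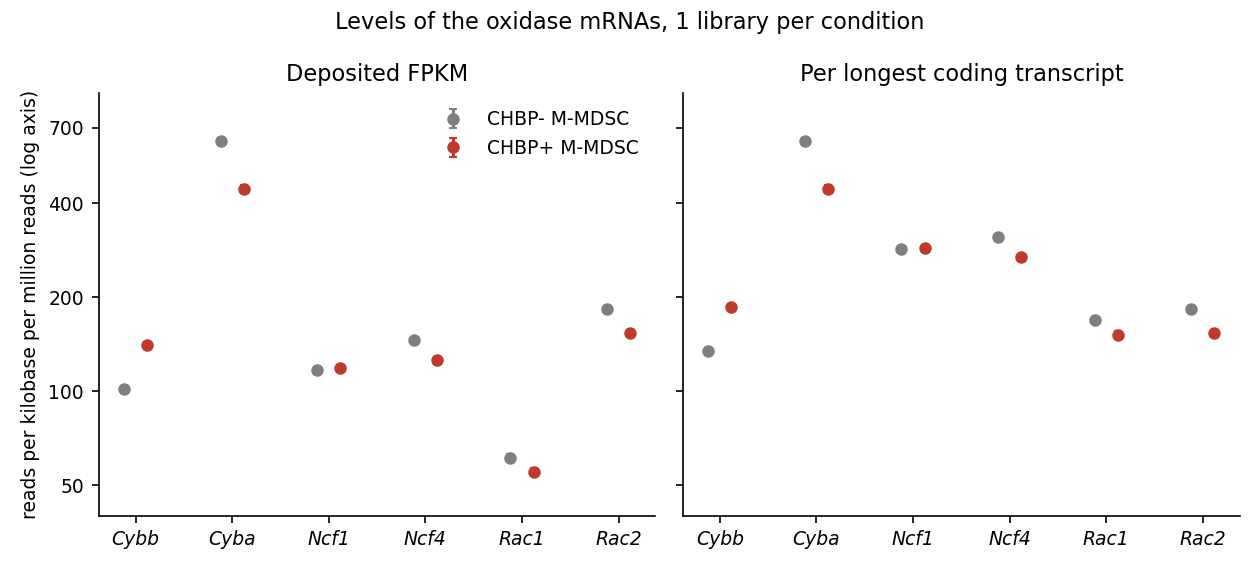
Level of each oxidase mRNA in the CHBP- (grey) and CHBP+ (red) library, on a log axis of reads scaled to length and library total, with the deposited FPKM on the left and the length of the longest coding transcript in place of the authors' gene length on the right. Bars, mostly hidden by the points, are exact Poisson 95% intervals for counting error, and Cybb is the gene whose CHBP+ point lies clearly above its CHBP- point (141 against 102 FPKM).

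Ncf1 encodes p47phox, the organiser that is phosphorylated on activation and brings the cytosolic complex to p22phox. The gene (ENSMUSG00000015950) spans 134220053 to 134229625 on chromosome 5. Its 12978 reads without CHBP and 12993 with CHBP corresponded to 117 and 118 FPKM. The libraries overlapped within counting error, with a log2 ratio of 0.02 and a fold in scaled reads of 1.01 (0.989 to 1.04). Its span overlaps Gtf2ird2 over 4303 bases, and that gene had 62 and 83 reads, few beside those of Ncf1.

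Ncf4 encodes p40phox, which binds the phagosomal lipid phosphatidylinositol 3-phosphate. The gene (ENSMUSG00000071715) spans 78244801 to 78262580 on chromosome 15. Its 7538 reads without CHBP and 6419 with CHBP corresponded to 146 and 126 FPKM. CHBP+ M-MDSC were the lower library, with a log2 ratio of -0.21 and a fold in scaled reads of 0.862 (0.834 to 0.892). Ncf1 over Ncf4 went from 0.798 to 0.938 in FPKM, and in reads the second ratio was 1.18 times the first (1.13 to 1.23), or 1.02 times once the trend over all genes with transcript length and GC content, described below, was removed.

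Rac2 is the Rac GTPase of blood cells and the main one of the neutrophil oxidase, whereas Rac1 is expressed in most tissues and serves the oxidase of monocytes and macrophages. Rac2 (ENSMUSG00000033220, chromosome 15 from 78559169 to 78572783) had 9183 reads without CHBP and 7587 with CHBP, and 183 and 153 FPKM. The log2 ratio was -0.26 and its fold in scaled reads 0.837 (0.811 to 0.862). Rac1 (ENSMUSG00000001847, chromosome 5 from 143503634 to 143528036) had 6474 and 5751 reads, and 61.4 and 55.2 FPKM. Its log2 ratio was -0.15 and its fold in scaled reads 0.899 (0.868 to 0.932). Both GTPases were thus lower in CHBP+ M-MDSC by more than counting error, and Rac2 over Rac1 was 2.99 and 2.78 in FPKM, a ratio of ratios of 0.930 in reads (0.887 to 0.975) and 0.907 with the same trend removed. The span of Rac1 overlaps Daglb over 2309 bases, and that gene had 303 and 272 reads.

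The Rac genes are close paralogs, and how the counting treated reads that fit several genes is not given in the sources used here. Their coding sequences in GENCODE M1 are both 579 bases long and carry the same base at 446 positions, or 77.0%. The longest run that the transcripts of both share is 29 bases and starts at the first coding base. It is shown as the longest stretch over which a read could match both genes exactly. The methods name a read length greater than this run.
Rac1 and Rac2: atgcaggccatcaagtgtgtggtggtggg

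**Figure D2:**
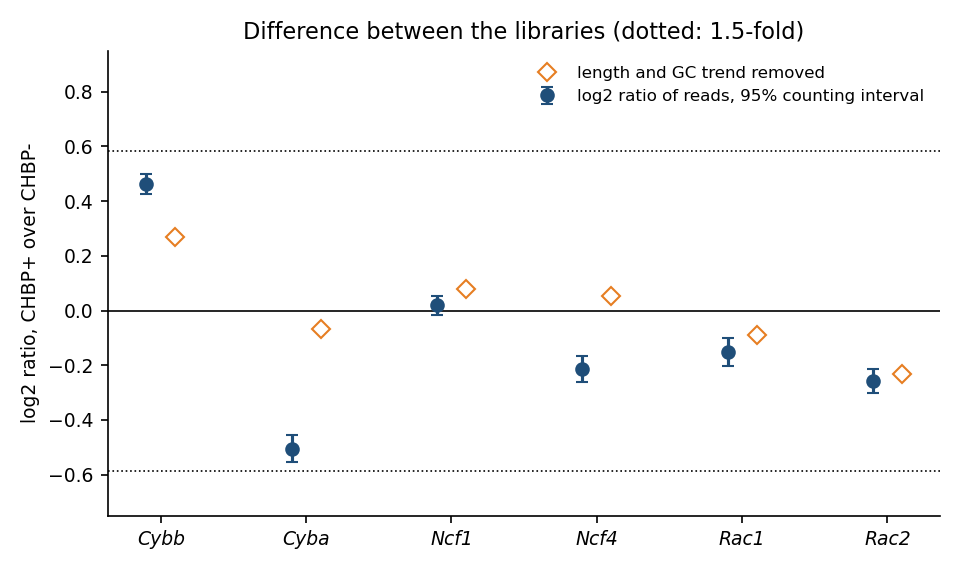
Log2 ratio of scaled reads, CHBP+ over CHBP-, of each oxidase gene (filled circles, with 95% Clopper-Pearson intervals for counting error), and the log2 ratio of FPKM after removal of the trend over all genes with length and GC content (open diamonds). All circles lie between the dotted lines at 1.5-fold, and the diamond of Cyba (-0.07) lies far closer to 0 than its circle (-0.51).

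The ratio of a gene between these libraries followed the length of its longest coding transcript. By that length the membrane chains lie at the ends of the oxidase genes. By the gene length behind the deposited FPKM, Ncf1 (6.736 kilobases) and Rac1 (6.397) were longer than Cybb (6.289). Over 10211 genes, which share the same 2 libraries and are not independent, Spearman's rho of the log2 ratio with the length of the longest coding transcript in GENCODE M1 was 0.687. That transcript has 758 bases for Cyba and 4752 bases for Cybb, with 1464 for Ncf4, 2325 for Rac1, 2763 for Ncf1 and 3036 for Rac2. The value fitted from length and GC content was -0.44 for Cyba, against its measured -0.50, and 0.19 for Cybb, against its measured 0.46. For Rac2 it was -0.03, against the measured -0.26.

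With the fitted trend removed, the log2 ratio was 0.27 for Cybb, -0.07 for Cyba, 0.08 for Ncf1, 0.05 for Ncf4, -0.09 for Rac1 and -0.23 for Rac2. Cybb remained the highest of the 6 genes, Rac2 became the lowest, and Ncf4 changed sign. The ratio of Cyba to Cybb in CHBP+ M-MDSC was then 0.792 times that in CHBP- M-MDSC. None of the 6 genes was 1.5-fold apart on this scale either, on a background of 1.83% of 10211 genes higher and 0.95% lower. The remaining spread of single genes was an SD of 0.243 over all 10211 genes, and the values of Cybb and Rac2 were each close to 1 SD from 0. That SD includes genes with far fewer reads than Cybb and Rac2, and the spread of genes at their level was not computed.

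**Figure D3:**
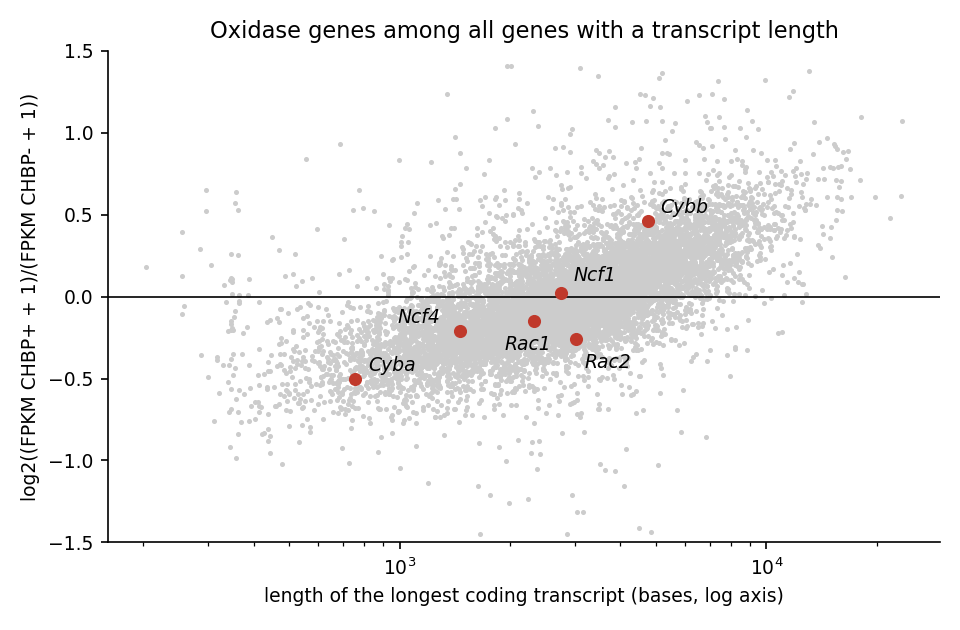
Log2 ratio of FPKM (with 1 added) against the length of the longest coding transcript on a log axis, for 10180 genes (grey) and the 6 oxidase genes among them (red), with 31 genes beyond the vertical axis left out. The cloud rises with length, Cyba (758 bases) lies at its short end below 0 and Cybb (4752 bases) in its long part above 0, by 0.46 against a fitted 0.19.

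By FPKM, the order of levels in CHBP- M-MDSC was Cyba (632), Rac2 (183), Ncf4 (146), Ncf1 (117), Cybb (102) and Rac1 (61.4). In CHBP+ M-MDSC it was Cyba (446), Rac2 (153), Cybb (141), Ncf4 (126), Ncf1 (118) and Rac1 (55.2). Cybb thus passed Ncf4 and Ncf1. The counting intervals of neighbours overlapped for 0 of 5 pairs in either library, and no spread between replicates was there to set beside them.

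The order depended on the gene length used. The length behind the deposited FPKM equalled that of the longest coding transcript for Cyba and Rac2, and was 1.32 times as long for Cybb, 2.13 for Ncf4, 2.44 for Ncf1 and 2.75 for Rac1. Scaled to that transcript and to the library total in place of the gene length, an alternative added after the values were seen, the levels in CHBP- M-MDSC were 632 for Cyba, 312 for Ncf4, 285 for Ncf1, 183 for Rac2, 169 for Rac1 and 135 for Cybb. In CHBP+ M-MDSC they were 446 for Cyba, 289 for Ncf1, 269 for Ncf4, 186 for Cybb, 153 for Rac2 and 152 for Rac1. Cyba was the highest on both scales, and on this scale Rac2 and Rac1 did not differ beyond counting error in CHBP+ M-MDSC. The same length divides both libraries, so choosing another changes the ratios between them only through the 1 added to each FPKM. Those ratios did follow transcript length over all genes, as described above.

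**Figure D4:**
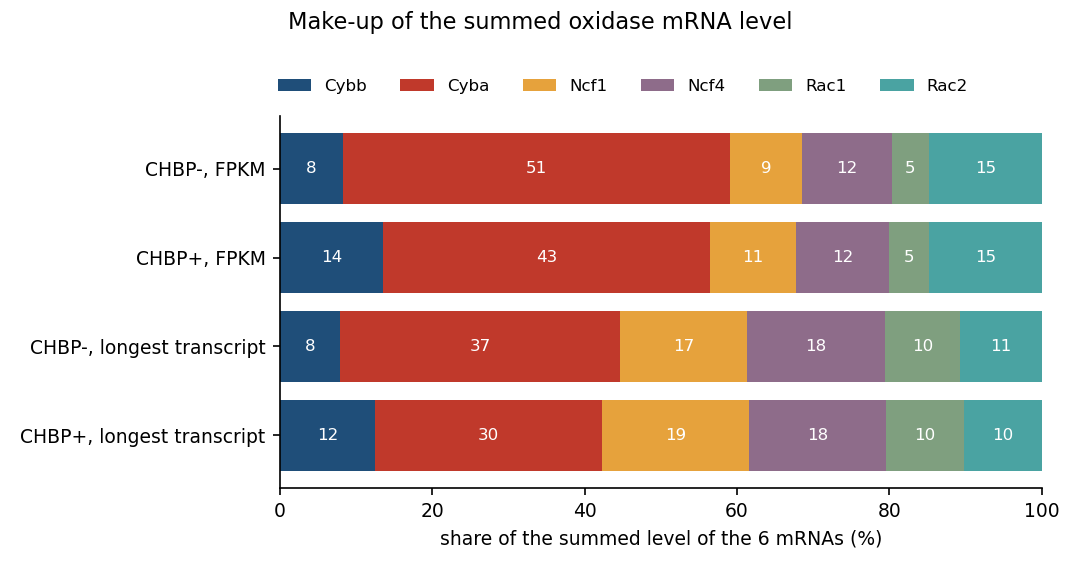
Share of each gene in the summed level of the 6 oxidase mRNAs (percent, printed in the bars), in each library, by deposited FPKM in the upper pair of bars and per longest coding transcript in the lower pair. In both pairs the share of Cyba (red) is smaller and that of Cybb (dark blue) larger in CHBP+ M-MDSC.

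The FPKM of the 6 genes summed to 1242 without CHBP and 1040 with CHBP, and Cyba made up 50.9% and 42.9% of these sums. Cybb made up 8.21% and 13.5%. The other shares moved by under 2 percentage points, from 9.41% to 11.4% for Ncf1, 11.8% to 12.1% for Ncf4, 4.94% to 5.31% for Rac1 and 14.8% to 14.8% for Rac2. Without Cyba the summed FPKM was 610 and 594. In reads, the 6 genes together held 54647 and 52651, a fold of 0.976 in scaled reads (0.964 to 0.987).

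The genes around the oxidase were read from 6 lists, and their ratios are described beside those of all genes kept, whose median log2 ratio was -0.03 with 5066 genes higher and 5882 lower. The members' own median was -0.18, with 2 higher and 4 lower, and -0.01 with the trend removed, with 3 higher and 3 lower.

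Other members of the NOX and DUOX family had few reads or none. Of 9 oxidases and organisers reported, 0 reached 1 FPKM and 7 had no read in either library, where a count of 0 allows a level of up to 3 reads, or 0.182 and 0.184 CPM (counts scaled to the library total alone). Nox1, an oxidase of epithelium, had 0 and 1 reads. Noxo1, its organiser, had 26 and 21 reads, or 0.233 and 0.190 FPKM. Cybb was therefore the only catalytic oxidase chain among those listed that was measured above 1 FPKM.

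Among 17 regulators of Rac and Rap GTPases, 15 were kept, 9 of them higher and 6 lower, with a median log2 ratio of 0.16. Tiam1, an exchange factor that loads Rac with GTP, was the one gene past 1.5-fold on the log2(FPKM + 1) scale, with 1179 and 2791 reads, 4.41 and 10.6 FPKM and a log2 ratio of 1.10. With the trend removed that of Tiam1 was 0.77. Dock5, another Rac exchange factor, was 1.52-fold higher in scaled reads (1.41 to 1.64), but its log2 ratio of 0.54 fell short after 1 was added to each FPKM, and it was 0.05 with the trend removed. The most abundant were Cdc42, a related GTPase (356 and 339 FPKM, log2 ratio -0.07), Arhgdib, which holds Rac inactive in the cytosol of blood cells (363 and 315 FPKM, -0.20), and Rap1b, a close relative of the Rap1a GTPase found with the flavocytochrome (313 and 302 FPKM, -0.05). These 3 abundant genes were lower in CHBP+ M-MDSC by at most 0.20 on the log2 scale.

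Of 15 kinases and lipid enzymes that act on the oxidase, 14 were kept, 12 higher and 2 lower, with a median of 0.13 and none past 1.5-fold on the log2(FPKM + 1) scale. Prkcb, a protein kinase C, was 1.51-fold higher in scaled reads (1.39 to 1.64), with 898 and 1339 reads and a log2 ratio of 0.52, or 0.53 with the trend removed. Prkcd, a related kinase that phosphorylates p47phox, had 50.6 and 52.6 FPKM and a log2 ratio of 0.06. Akt1, which also phosphorylates p47phox, had 49.5 and 43.0 FPKM and a log2 ratio of -0.20. Pak2, a kinase activated by Rac, had 40.1 and 48.5 FPKM and a log2 ratio of 0.27, which was 0.01 with the trend removed. With the trend removed, 9 of the 14 were higher and the median was 0.03.

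Of 7 genes listed for maturation, charge compensation and turnover of the oxidase, 6 were found and kept, 3 higher and 3 lower, with a median of -0.04. Hvcn1, the proton channel that balances the charge of the electrons moved by the oxidase, had 70.4 and 70.5 FPKM and a log2 ratio of 0.00. BC017643, the table's name for the gene also known as Cybc1 or Eros, a chaperone of the flavocytochrome, had 13.2 and 12.3 FPKM and a log2 ratio of -0.10. Nrros, which limits the amount of gp91phox, had 26.7 and 25.2 FPKM and a log2 ratio of -0.08. Clic1, a chloride channel protein, had 264 and 212 FPKM and a log2 ratio of -0.31, which was -0.05 with the trend removed. The chaperone and Nrros were thus each within 0.10 of 0, while Cybb itself was higher.

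Enzymes that use or remove superoxide and peroxide were mostly lower. Of 13 listed, 12 were kept, 2 higher and 10 lower, with a median log2 ratio of -0.21. Sod1, the cytosolic superoxide dismutase, had 165 and 106 FPKM (log2 ratio -0.64), and Prdx5, a peroxiredoxin, had 120 and 73.5 FPKM (-0.70). Both were past 1.5-fold, and with the trend removed their log2 ratios were -0.25 and -0.37. Txn1, thioredoxin, had 247 and 175 FPKM (-0.50), and Prdx1 had 480 and 436 FPKM (-0.14). With the trend removed, 9 of the 12 were lower and the median was -0.10. Transcripts of Sod1 (646 bases) and Txn1 (1051 bases) are short, as is that of Cyba.

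The transcription factors known to act at Cybb and at Ncf genes differed among themselves, with 2 of the 8 reported and kept higher and 6 lower and a median log2 ratio of -0.16. With the trend removed, 4 were higher and 4 lower. Spi1, which encodes PU.1, had 85.7 and 72.0 FPKM and a log2 ratio of -0.25. Cebpe, a factor of late granulocyte maturation that is also on the granulocyte marker list below, had 53.9 and 36.0 FPKM (-0.57), and Rela had 30.9 and 28.9 FPKM (-0.09). Irf8, whose product acts with PU.1 at Cybb, had 12.9 and 12.6 FPKM (-0.04). Hoxa9, a homeobox factor, was lower in scaled reads at 0.570-fold (0.435 to 0.744), with 158 and 89 reads and a log2 ratio of -0.40, or -0.43 with the trend removed.

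**Figure D5:**
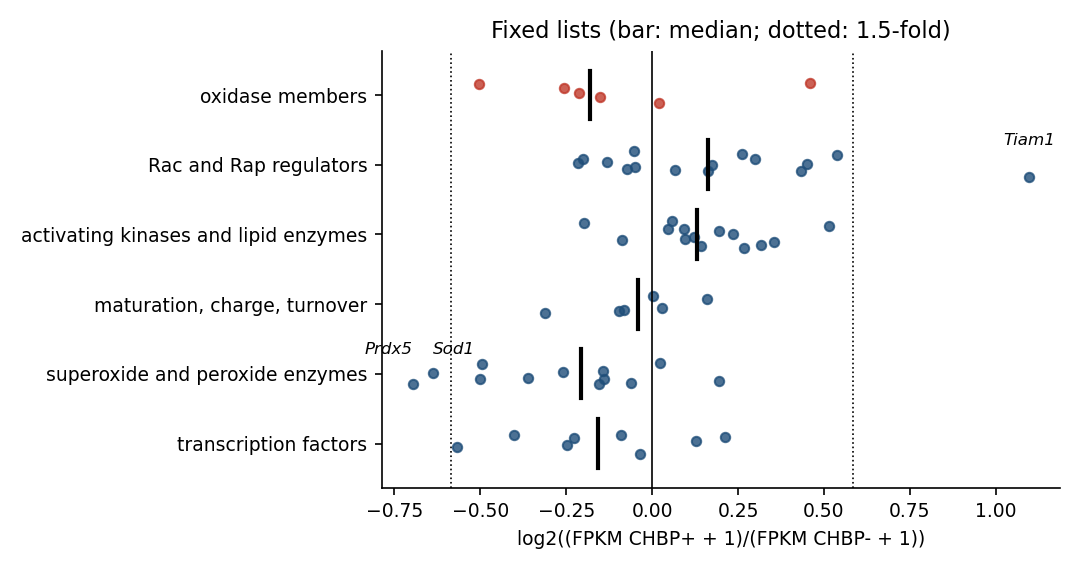
Log2 ratio of FPKM (with 1 added), CHBP+ over CHBP-, of each gene kept (points) in the oxidase members (red) and in each list with a gene kept (blue), with black bars at the medians and dotted lines at 1.5-fold. The members span from -0.50 to 0.46, and Tiam1, Prdx5 and Sod1 are the genes drawn beyond the dotted lines.

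The label of the cells was checked on marker genes. All 10 rows of the 9 monocyte markers reached 1 FPKM, among them Lyz2 (9756 and 7830 FPKM), Csf1r (113 and 126) and Ly6c2 (56.9 and 34.0). Itgam, which encodes CD11b, has 2 rows under its name, one with 18653 and 27265 reads and the other with 8703 and 13147. Ly6g, the marker gated out, had 2.19 and 2.12 FPKM, but all 9 granulocyte markers reached 1 FPKM, with a sum of 275 FPKM in CHBP- and 201 FPKM in CHBP+ M-MDSC and 2 of them, Elane and Prtn3, at least 1.5-fold lower. Of the 9, 7 were lower and 2 were higher, Cxcr2 (log2 ratio 0.06) and Ltf (0.05). With the trend removed 5 were higher and 4 lower, and Elane (-0.30) and Prtn3 (-0.37) were no longer past 1.5-fold. Macrophage markers summed to 182 and 210 FPKM with 5 of 5 at 1 FPKM or more, and dendritic cell markers to 295 and 299 FPKM with 5 of 7. Mast cell and basophil markers summed to 297 and 244 FPKM (6 of 6), eosinophil markers to 122 and 89.3 FPKM (4 of 4), erythroid markers to 1305 and 602 FPKM (6 of 6) and B cell markers to 25.8 and 17.0 FPKM (3 of 3). T cell markers summed to 3.47 and 3.31 FPKM, and 1 of 5 reached 1 FPKM.

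The granulocyte sum was thus lower in CHBP+ M-MDSC, though 2 of the 9 markers were higher, and 5 with the trend removed. The monocyte sum (10412 and 8574 FPKM, mostly Lyz2) was lower too. Of its 10 rows 4 were higher and 6 lower. Both Itgam rows were higher (log2 ratio 0.56 and 0.61), and the sorting marker Ly6c2 was lower (-0.73). With the trend removed, where the second Itgam row had no value, 4 were higher and 5 lower. Ly6c2 was then at -0.42, and 0 rows were past 1.5-fold. The mast cell and basophil, eosinophil, erythroid, B cell and T cell sums were lower as well. Of the 6 mast cell and basophil markers, Ms4a2 was higher (2.46 and 6.11 FPKM, log2 ratio 1.04) and 5 were lower. With the trend removed 3 were higher and 3 lower. The eosinophil, erythroid and B cell markers were all lower, with Hbb-bs at 708 and 212 FPKM of the erythroid sum. Of the 5 T cell markers 2 were higher and 3 lower. Cyba, Rac2, Ncf4 and Rac1 were also lower, while Cybb was higher and Ncf1 level, and neutrophils express all of these genes. The macrophage sum was higher, as were the dendritic cell sum and Cybb. Of the 7 dendritic cell markers, 3 were higher and 4 lower, and 2 and 3 with the trend removed. Itgax was higher (107 and 142 FPKM), whereas H2-Ab1 was lower (104 and 81.4 FPKM). Of the 5 macrophage markers 4 were higher. Most of their sum was Adgre1 (158 and 184 FPKM), and C1qa was lower (10.3 and 7.97 FPKM). The part of any cell type in the values of the oxidase genes was not tested. In bulk RNA, fewer cells of a type and less RNA per cell cannot be told apart.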

How the data were processed

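RNA of sorted CHBP- and CHBP+ M-MDSC was sequenced as 1 library each. The authors removed adapters, reads of ribosomal RNA, bases of low quality and reads that were too short. The methods name TopHat2, HT-seq and mm9, whereas the submitters' processing notes name HISAT2 2.0.4, Cufflinks 2.1.1, mm10 and GRCm38. Which of these programs made the files cannot be told apart. The deposited spans of the 6 genes overlapped their RefSeq GRCm38 genes in 6 of 6 and the mm9 annotation in 0 of 6, so coordinates are given as GRCm38. The deposited counts are raw reads per gene. The deposited FPKM were made by the authors from count, gene length and total count, and the FPKM that 1 read is worth was 1.01 times as large in CHBP+ M-MDSC, which is the ratio of the totals.

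The log2 ratio used FPKM with a pseudocount of 1, which understates low genes, over genes of at least 1 FPKM in one library. With 1 library per condition neither a count model nor a p-value between conditions was computed, although the methods name DESeq. Intervals are exact at 95% if reads are independent, and cover counting error only. Since reads are not independent molecules, the intervals may be too narrow even for that error. The trend was a least-squares polynomial in length and GC content of the longest GENCODE M1 coding transcript, found for 93.3% of the genes kept. This routine and the intervals were tested on simulated data.

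Genes named are the 6 members, and from each list those at least 1.5-fold apart with 50 reads or more in one library and the 3 of highest mean FPKM. BC017643, Irf8, Dock5, Prkcb and Hoxa9 were named besides, after their values were seen. Genes alike in pattern were not sought, since 2 libraries give a gene 1 ratio. The lists held 2 further genes that are not reported here and enter no list count or median. Members and lists were chosen with earlier results of these data known. Python 3.11.15, numpy 2.4.6, pandas 2.3.3, scipy 1.17.1, matplotlib 3.10.9, R 4.3.3 and edgeR 4.0.16 (TMM) were used.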

Additional observations from a re-analysis of the deposited data

How the results depend on the processing

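Of 33 recomputed log2 ratios of the members, 28 stayed within the counting interval under a pseudocount of 0.1, CPM, median centring, TMM scaling, reads of overlapping genes added or, for Rac2, the trend removed. With the trend removed the other 5 left it, at 0.27 (Cybb), -0.067 (Cyba), 0.080 (Ncf1), 0.052 (Ncf4) and -0.089 (Rac1), and the members' median was -0.0074. The part of RNA, library and CHBP in that trend was not tested. No member passed 1.5-fold or 2-fold under any setting. Over all genes, a pseudocount of 0.1 gave 665 genes 1.5-fold higher and 571 lower. These counts were 187 and 97 with the trend removed, 85 and 46 at 2-fold, and 218 and 209 with at least 5 FPKM (fewer genes counted). With CPM, 609 were higher. Among list medians, 22 of 25 stayed within their median counting interval. Those that left it, all with the trend removed, were 0.078 (Rac and Rap regulators), -0.10 (superoxide and peroxide enzymes) and -0.0025 (transcription factors).

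Levels between genes depend on length. By counts, Cyba over Cybb was 0.747 and 0.382 in CHBP- and CHBP+ M-MDSC, Ncf1 over Ncf4 1.72 and 2.02, and Rac2 over Rac1 1.42 and 1.32. Per longest transcript they were 4.68 and 2.39, 0.912 and 1.07, and 1.09 and 1.01. Shares in CHBP- and CHBP+ M-MDSC by counts were 19.3% and 27.4% (Cybb), 14.5% and 10.4% (Cyba), 23.7% and 24.7% (Ncf1), 13.8% and 12.2% (Ncf4), 11.8% and 10.9% (Rac1), and 16.8% and 14.4% (Rac2). Per longest transcript they were 7.86% and 12.5% (Cybb), 36.8% and 29.8% (Cyba), 16.6% and 19.3% (Ncf1), 18.2% and 18.0% (Ncf4), 9.84% and 10.2% (Rac1), and 10.7% and 10.3% (Rac2). No paired analysis was possible because each condition has 1 library, and no replicate could be left out.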
